A study of Mus musculus with 24 samples.

Results

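Pre-granulosa cells and Sertoli cells, the supporting cells of the fetal ovary and testis, were compared at E12.5 of embryonic development by RNA sequencing of sorted mouse gonad cells. The comparison used the 6 libraries of that stage out of 24 in the series, chosen by their stage and sex labels, and covered all 32040 genes listed, of which 16190 had enough counts to be tested. The XX group held 3 libraries of pre-granulosa cells of the Tg(Enh8-mCherry) mouse line, and the XY group held 3 libraries of Sertoli cells of the SOX9-IRES-GFP line. Both were isolated from fetal gonads by fluorescence-activated cell sorting, and the labels name no drug or gene deletion for either group. The libraries of the neighbouring stages E11.5 and E13.5, 3 per sex and stage from the same lines, served to show how the E12.5 difference stood between them. For 1 of the XX E13.5 libraries, replicate 1, a second label field gives E12.5; it was kept as E13.5 after its title, and its Spearman correlation was 0.993 to 0.994 with the other XX E13.5 libraries and 0.975 to 0.982 with those of XX E12.5.

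Supporting cells of both sexes arise from a common bipotential lineage. In XY gonads Sry and then Sox9 direct them to become Sertoli cells, which enclose the germ cells in cords, secrete the hormone AMH and signal to the other cells of the testis. In XX gonads WNT signalling through R-spondin 1 and WNT4, together with Foxl2 and Runx1, directs them to become pre-granulosa cells, which stop dividing and nurse germ cells that enter meiosis. E12.5 is soon after this choice.

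Sex, mouse line and fluorophore changed together, so each difference is between these 2 kinds of sorted library. The XY cells were sorted on a reporter in Sox9, whose own level is therefore no independent finding. The labels do not say whether replicates came from separate litters or animals, so p values measure only the spread between these libraries, which may be technical. In bulk RNA of this kind, fewer cells of a type and less RNA per cell cannot be told apart. Total counts were between 20200504 and 23912005 in XX and between 23938921 and 26130209 in XY, so that 3 counts, taken as the floor, stood for 0.117 to 0.14 CPM, the count scaled to a common library size. Spearman correlations over the genes tested were 0.990 to 0.996 within groups (6 pairs) and 0.888 to 0.896 between them (9 pairs). The sex labels held in all 6 libraries: Xist was at 90.4, 112 and 118 CPM in the XX libraries and 0.14, 0.0863 and 0 in the XY libraries, and Ddx3y, on the Y chromosome, was at 0 in all XX libraries and at 144, 173 and 169 CPM in XY.

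The marker genes Amh, Sox10, Fst and Sulf1 each separated the groups without overlap. Amh (GRCm38, chr10:80805243-80807648), which encodes the hormone that regresses the Müllerian ducts, was at 0.855, 0.909 and 0.659 CPM in the XX libraries and 3826, 3859 and 3838 CPM in the XY libraries. It was 4756-fold higher in XY (log2 difference -12.20, SE 0.63, adjusted p 1.83e-12), and its 3 XY values were nearly equal. Sox10 (chr15:79154908-79165240), a relative of Sox9 that can take its place in testis formation, had no count in any XX library and was at 18.8, 21.6 and 26.3 CPM in XY. Against the floor of 3 counts in the shallowest XX library it was at least 163-fold higher in XY. Fst (chr13:114452290-114458951), which encodes follistatin, a secreted inhibitor of activins, was at 561, 609 and 739 CPM in XX and at 0.0467, 0.259 and 0.32 in XY (log2 difference 11.52, SE 0.69, adjusted p 1.9e-11). Sulf1 (chr1:12692277-12861192), an extracellular enzyme that removes sulfate groups from heparan sulfate, was at 698, 581 and 674 CPM in XX and 13.1, 12.1 and 15.1 in XY, a 48.5-fold difference (log2 difference 5.60, SE 0.14, adjusted p 1.02e-17).

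**Figure D1:**
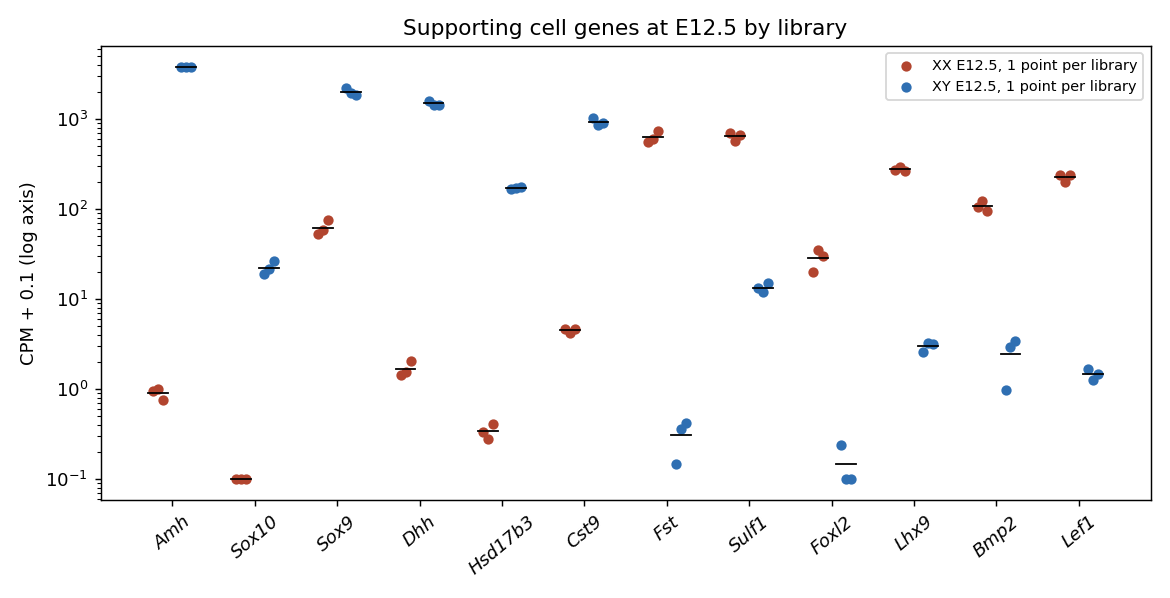
Level of 12 supporting cell genes in each of the 6 E12.5 libraries, as CPM plus 0.1 on a log axis (red, 3 XX libraries; blue, 3 XY libraries; 1 point per library). The XX and XY points of each gene do not overlap; Sox10 in XX and Foxl2 in 2 of 3 XY libraries lie at the bottom of the axis because they had no count.

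Promoters are shown for 4 genes of the signalling pathways described below: Dhh and Fgf9, which were higher in XY, and Rspo1 and Axin2, which were higher in XX. Each sequence is the 250 bases before the RefSeq start (GRCm38.p6), written 5′ to 3′ on the gene's strand, and none overlaps an exon of GENCODE M21. The Fgf9 window lies inside the GENCODE span of its gene (chr14:58070547-58112720), downstream of the GENCODE start. The other windows end directly before the GENCODE start of their gene.
Dhh, chr15:98898541-98898790, minus strand: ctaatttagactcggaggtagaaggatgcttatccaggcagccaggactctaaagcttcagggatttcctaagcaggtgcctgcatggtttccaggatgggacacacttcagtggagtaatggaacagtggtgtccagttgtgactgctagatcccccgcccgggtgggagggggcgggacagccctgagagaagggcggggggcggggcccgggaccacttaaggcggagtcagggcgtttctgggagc
Fgf9, chr14:58072436-58072685, plus strand: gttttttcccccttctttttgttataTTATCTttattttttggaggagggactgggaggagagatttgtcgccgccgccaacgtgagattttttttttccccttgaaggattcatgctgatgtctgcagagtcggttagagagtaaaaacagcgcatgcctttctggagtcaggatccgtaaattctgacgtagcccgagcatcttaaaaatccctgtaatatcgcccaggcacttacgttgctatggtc
Rspo1, chr4:124986180-124986429, plus strand: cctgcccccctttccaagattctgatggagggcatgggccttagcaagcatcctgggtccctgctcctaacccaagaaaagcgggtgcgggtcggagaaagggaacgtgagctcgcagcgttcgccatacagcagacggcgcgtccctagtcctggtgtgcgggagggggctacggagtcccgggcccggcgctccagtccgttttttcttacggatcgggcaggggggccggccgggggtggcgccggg
Axin2, chr11:108920099-108920348, plus strand: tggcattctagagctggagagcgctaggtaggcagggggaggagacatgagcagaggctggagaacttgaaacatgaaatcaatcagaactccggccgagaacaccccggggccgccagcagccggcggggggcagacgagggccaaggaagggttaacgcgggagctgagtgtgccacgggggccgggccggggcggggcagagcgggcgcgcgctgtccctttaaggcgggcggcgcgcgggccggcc
Capitals mark a match on either strand to any of 4 short motifs. The motif bound by nuclear receptors such as NR5A1 was searched as AAGGTCA and was held by 4.08% of all 32851 RefSeq promoter windows of this length. The SOX motif was searched as AACAAT and was held by 9.42% of the windows. A motif common to SOX and TCF factors was searched as ACAAAG and was held by 16.5%. The GATA motif was searched as AGATAA and was held by 9.99%. The only match in the 4 windows printed was 1 GATA motif in that of Fgf9. Among genes higher in XX by a log2 difference of at least 1 (3067 windows) the shares were 3.33%, 5.12%, 14.2% and 7.08%, and among those higher in XY (2164 windows) they were 3.51%, 6.1%, 14.4% and 6.61%. These are descriptions of letters in a window and were not tested.

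Across the transcriptome, 10046 of 16190 genes (62.1%) differed at an adjusted p under 0.05 in edgeR's quasi-likelihood test. Of these, 4939 (30.5% of the genes tested) were higher in XX and 5107 (31.5%) in XY. The libraries of the 2 groups did not overlap for 11143 genes (68.8%), 5397 (33.3%) with XX above XY and 5746 (35.5%) the reverse. The larger differences leaned to XX. A log2 difference of 1 or more in size was found in 5434 genes (33.6%), of which 3206 (19.8%) lay on the XX side and 2228 (13.8%) on the XY side. At 5 or more, the numbers were 477 and 234. The median log2 difference of all genes tested was -0.00511. The deposited TPM values, which also correct for transcript length, were tested by limma on log2(TPM + 1), without the TMM scaling factors of the count test. Those factors were 1.08 to 1.10 in XX and 0.887 to 0.895 in XY. On the TPM scale, genes tested in both ways shifted towards XX by a median of 0.20. There, 62.5% of the genes called were higher in XX, against 49.2% in the count test. A total of 49 genes had no count in any XY library and at least 1 CPM in each XX library, and 36 genes showed the reverse. Genes called made up 56.4% of the summed TPM in XX and 62.6% in XY (means of 3 libraries).

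**Figure D2:**
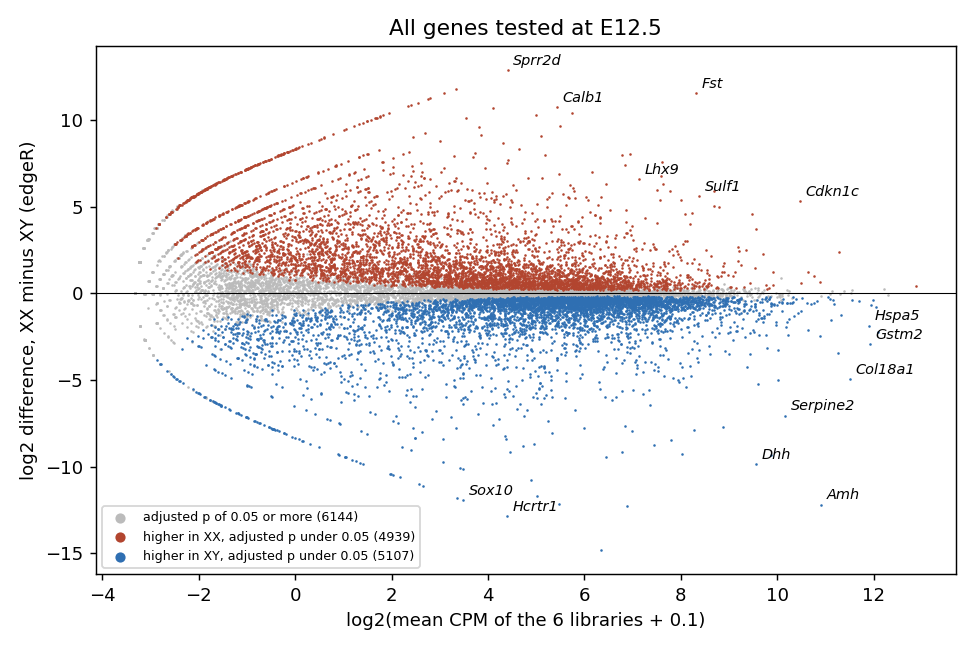
Log2 difference at E12.5 (XX minus XY, edgeR) against mean level over the 6 libraries, on a log2 scale, with 1 point per gene tested. Genes called higher in XX (4939) lie above 0 and genes called higher in XY (5107) below it, and labelled genes are among those named in the text.

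Genes of Sertoli cells were high in XY with a single exception. Of 26 such genes, 25 were higher in XY, against 31.5% of all genes tested, and 1 in XX, with a median log2 difference of -5.81 (-5.44 with genes absent from XX set at their lower bound). The 25 include Sox9, whose reporter was used for sorting, Sry, which lies on the Y chromosome, and the markers Amh and Sox10 given above. The direction of these genes is no independent finding. Their summed level was 607 to 669 CPM in the XX libraries and 14759 to 15325 CPM in the XY libraries.

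Among the transcription factors, Sox9 was at 52.6, 58.3 and 75.3 CPM in XX and 2218, 1983 and 1852 in XY. Sox8, which acts beside Sox9 to maintain Sertoli cells, was at 3.54, 2.73 and 2.07 CPM in XX and 109, 94.3 and 81.9 in XY (log2 difference -5.09, SE 0.25, adjusted p 3.54e-13). Dmrt1, which later guards Sertoli identity, was 4.55-fold higher in XY and was still read in all XX libraries (17.9, 21.2 and 32.8 CPM). Sry itself was at 0.0467, 0.345 and 0.548 CPM in XY, a total of 21 counts over the 3 libraries, and at 0 in XX. It was at least 2.3-fold higher in XY.

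Several secreted products of Sertoli cells were very low in XX, and others were read in both groups. Dhh, the hedgehog ligand that acts on fetal Leydig cells, was at 1.36, 1.45 and 1.98 CPM in XX and 1597, 1461 and 1445 in XY, 939.6-fold higher (log2 difference -9.88, SE 0.30, adjusted p 3.88e-16). Cst9, a testis cystatin, was at 4.58, 4.14 and 4.61 CPM in XX and 1024, 874 and 899 in XY. Ptgds, which makes prostaglandin D2, was 239.9-fold higher in XY (log2 difference -7.91, SE 0.34, adjusted p 7.27e-14). Serpine2, a secreted protease inhibitor, was 134-fold higher and Gdnf, a growth factor for spermatogonial stem cells, 356-fold. Clu, Pdgfa, Inha and Inhbb differed less, by 4.96, 7.3, 3.42 and 2.09 times, and were read in all XX libraries. The exception was Vegfa, the vessel growth factor, which was low in both and higher in XX (6.02, 8.05 and 7.43 CPM against 3.32, 3.36 and 4.8 CPM; log2 difference 0.90, SE 0.21, adjusted p 0.000891).

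Of the enzymes and receptors, Hsd17b3, which reduces androstenedione to testosterone, was at 0.233, 0.182 and 0.308 CPM in XX and 169.9, 174 and 176 in XY. Cyp26b1, which degrades retinoic acid, was at 4.47, 5.46 and 5.89 CPM in XX and 274, 309 and 286 in XY (log2 difference -5.78, SE 0.39, adjusted p 8.5e-11). Tesc, a calcium-binding protein, was 205-fold higher in XY, and Aard, Vnn1 and Mro were 29.7, 15.8 and 14.1 times higher. Fshr, the receptor for follicle-stimulating hormone, was low but present in XY (3.64, 2.63 and 2.97 CPM) and had 1 count in all XX libraries together, a ratio of 216-fold (95% counting interval 38.8 to 8543).

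Pre-granulosa genes were mostly high in XX. Of 14, 12 were higher in XX, none in XY and 2 (Lgr5 and Irx1) were not called, against 30.5% of all genes tested higher in XX, with a median of 4.65. The 12 include the marker Fst given above. Foxl2, a forkhead factor that keeps the granulosa fate, was at 20.2, 35.5 and 30.3 CPM in XX. In XY it had 3 counts in replicate 1 and none in the other libraries, a ratio of 625-fold (95% counting interval 214 to 3032). Msx1, a homeobox factor, was at 392, 371 and 396 CPM in XX and 2.8, 1.38 and 1.96 in XY (log2 difference 7.56, SE 0.21, adjusted p 8.5e-17). Irx3 was at 181, 258 and 218 CPM in XX and 1.07, 0.82 and 0.685 in XY, and its neighbour Irx5 was lower in level but 12.9-fold higher in XX. Runx1, by contrast, was read in every library, at 72.9, 87.1 and 88.3 CPM in XX and 13.1, 15.6 and 18.2 in XY (log2 difference 2.40, SE 0.14, adjusted p 2.38e-12). Gng13, a G-protein subunit, was at 63, 88.2 and 53.8 CPM in XX and 0.14, 0.129 and 0.0914 in XY.

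The pre-granulosa genes Kitl, Lgr5 and Irx1 did not follow the rest. Kitl, the KIT ligand for germ cells, was at 1100.4, 933 and 853 CPM in XX and 859, 796 and 762 in XY, and 1 XX library lay below the highest XY library. Its difference was called at 0.26 (SE 0.11, adjusted p 0.0469) and was lost without XX replicate 1 (0.21) or XY replicate 3 (0.29). Lgr5, an R-spondin receptor, was at 223, 219 and 123 CPM in XX and 264, 269.7 and 255 in XY, with no call (adjusted p 0.191). Irx1 had no count in XX and was near the floor in XY (0, 0.216 and 0.0457 CPM).

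Transcription factors needed for the gonad in both sexes went 3 ways. Wt1 was at 789 ± 54.7 CPM (SD, n = 3) in XX and 804 ± 42 CPM in XY and was not called (log2 difference -0.03, SE 0.12, adjusted p 0.848). The sign of this small value turned under other scalings, as with DESeq2 size factors (0.01). Gata4 was not called either (log2 difference -0.41, SE 0.21, adjusted p 0.105), although it was without XY replicate 1 (-0.55). Nr5a1, which drives steroid enzymes and Amh, was at 238, 264 and 212 CPM in XX and 696, 652 and 620.3 in XY, 2.75-fold higher (log2 difference -1.46, SE 0.17, adjusted p 2.88e-07), and Zfpm2, the partner of GATA4, was 1.93-fold higher in XY. Lhx9, which is needed for the gonad to form, went the other way: it was at 275, 293 and 265 CPM in XX and 2.47, 3.19 and 3.06 in XY (log2 difference 6.57, SE 0.21, adjusted p 4.05e-16). Emx2 and Gata6 were also higher in XX, by 14.5 and 2.59 times. Nr0b1 was higher in XX by 0.42 on the log2 scale (adjusted p 0.00846).

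Of 42 genes of WNT signalling, 25 were higher in XX, where 30.5% of all genes tested were called higher, and 12 in XY, against 31.5% (median 1.88, or 1.31 with genes absent from 1 group set at their bound). WNT proteins bind frizzled and LRP receptors and stabilise beta-catenin, and R-spondins strengthen the signal by removing the receptor-degrading enzymes ZNRF3 and RNF43.

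Of 11 ligands, 9 were higher in XX. Rspo1 was at 29.6, 38.1 and 36.6 CPM in XX and 1.35, 0.518 and 0.548 in XY (log2 difference 5.43, SE 0.33, adjusted p 1.01e-11; 6.06 without XY replicate 1). Wnt4 was at 65.5, 69.4 and 93.6 CPM in XX and 5.65, 4.62 and 5.44 in XY, and Wnt9a at 71.3, 80.4 and 83.1 and 1.54, 1.81 and 0.868 CPM. Wnt6 stood out by its level in both sexes, 749 ± 83.7 CPM in XX and 1157 ± 8.14 in XY. It was higher in XY (log2 difference -0.63, SE 0.20, adjusted p 0.0114), a call lost without XX replicate 1 (-0.53) or XX replicate 3 (-0.52). The other ligand higher in XY, Wnt9b, was near the floor, with 8 counts in XY and none in XX.

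Targets of the pathway followed the ligands in part. Lef1, a transcription factor of the pathway and also its target, was at 243, 200.5 and 239 CPM in XX and 1.59, 1.16 and 1.37 in XY (log2 difference 7.37, SE 0.25, adjusted p 1.35e-15). Axin2 was at 42, 45.8 and 39.1 CPM in XX and 2.43, 2.2 and 1.55 in XY (log2 difference 4.35, SE 0.23, adjusted p 1.16e-12), and Sp5, Nkd1 and Rnf43 were 47.3, 11.7 and 6.3 times higher in XX. Nkd2, Znrf3 and Tcf7 were higher in XY; Nkd2, a relative of Nkd1, was at 26, 23.3 and 19.5 CPM in XX and 137, 185 and 169.9 in XY. Related genes thus differed in sign, with Nkd1 and Rnf43 higher in XX and Nkd2 and Znrf3 higher in XY. Of 9 secreted inhibitors, 6 were higher in XX and 3 in XY. Sfrp1 was 5.93-fold higher in XX, and Sfrp4 was at 0.738, 1.09 and 2.37 CPM in XX and 75.5, 61.8 and 56.7 in XY. Of 13 receptors, 5 were higher in XX, among them Fzd1 and Lgr4 (2.46 and 1.23), and 4 in XY, among them Fzd3 (-1.20).

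**Figure D3:**
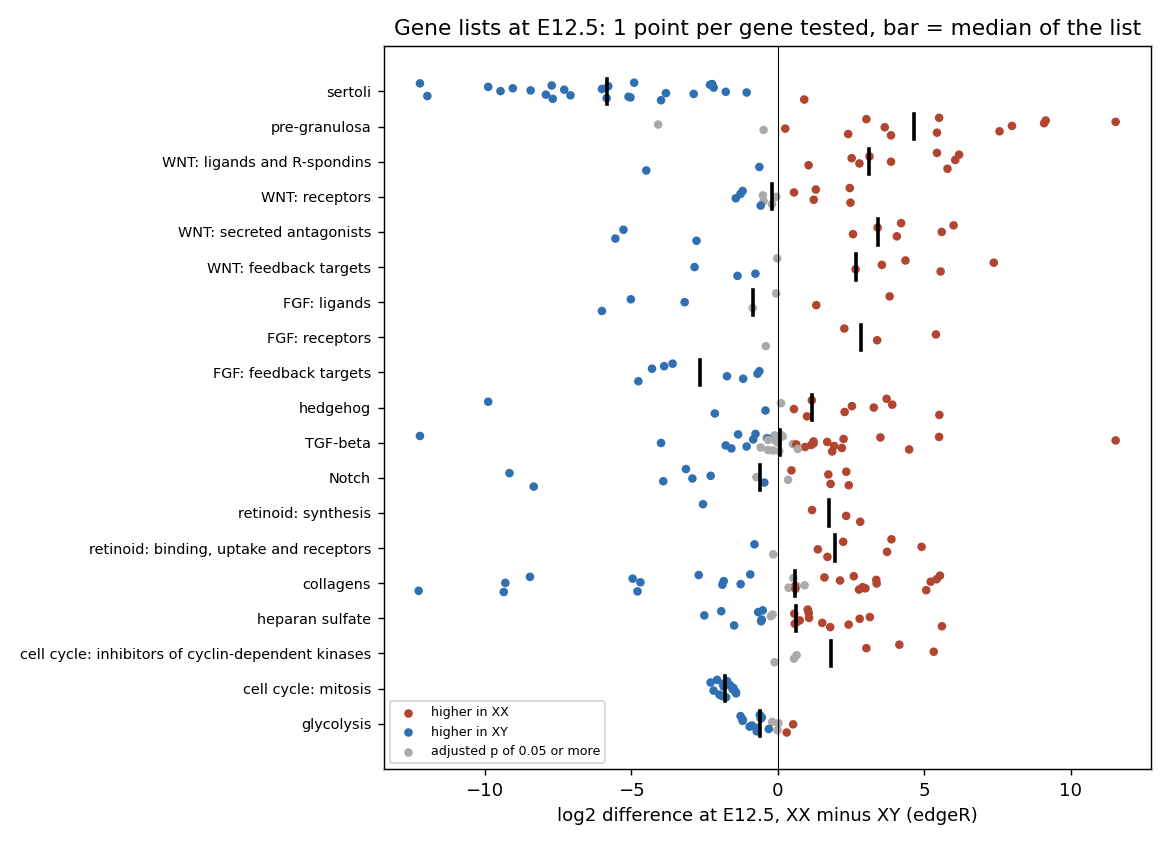
Log2 difference at E12.5 (XX minus XY, edgeR) of each gene tested in 19 lists or roles within lists; 1 point per gene, coloured by call (red, higher in XX; blue, higher in XY; grey, not called), with a black bar at the median. FGF feedback targets and mitosis genes lie on the XY side only, and FGF receptors and inhibitors of cyclin-dependent kinases have no member called higher in XY.

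Among FGF genes, receptors and feedback targets were called on opposite sides, and ligands on both. FGF9 from Sertoli cells opposes WNT4, and FGF receptors signal through the MAP kinase pathway, which switches on its own inhibitors. The ligand Fgf9 was at 0.971, 1.18 and 0.659 CPM in XX and 53.8, 65.5 and 61.1 in XY (log2 difference -6.00, SE 0.20, adjusted p 9.99e-16), and Fgf13, a member that stays inside the cell, and Fgf18 were 32.3 and 9.07 times higher in XY. Of 7 ligands, these 3 were higher in XY, 2 were higher in XX and 2 were not called. The XX ligands were Fgf2, at 2.99, 3.68 and 2.11 CPM in XX and 1.4, 1.21 and 0.914 in XY, and Fgf10, at 0.816, 1.18 and 0.132 CPM in XX and 0.0934, 0.0431 and 0 in XY, whose call was lost on the log2(TPM + 1) scale (adjusted p 0.236 by limma). All 8 feedback targets tested were higher in XY (median -2.66; 31.5% of all genes were called so). Etv5 was at 14, 15 and 10.6 CPM in XX and 239, 279 and 257 in XY (log2 difference -4.29, SE 0.49, adjusted p 3.14e-07), and Spry4 at 2.21, 2.77 and 2.07 and 61.5, 63.9 and 65.1 CPM. Dusp6, a phosphatase of the pathway, was at 25.1, 29.1 and 32.9 CPM in XX and 189, 401 and 455 in XY, with replicate 1 the lowest of the XY libraries. Receptors went the other way, with 3 of 4 higher in XX (30.5% of all genes tested) and none in XY. Fgfr2, the receptor needed for testis formation, was at 300.4, 388 and 429 CPM in XX and 7.05, 9.19 and 10.3 in XY, 42.1-fold higher in XX (log2 difference 5.39, SE 0.36, adjusted p 7.27e-11), and Fgfr1 and Fgfr3 were 4.83 and 10.6 times higher.

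Hedgehog proteins bind Patched receptors with the help of co-receptors and act through GLI factors. Ligand and receptor genes were on opposite sides. Dhh was an XY gene, as given above, while 6 of 7 receptors and co-receptors and all 3 GLI effectors were higher in XX (30.5% of all genes tested). The co-receptors Gas1 and Boc were at 86.8, 132 and 78.3 CPM and 111, 105 and 92.5 CPM in XX and at 4.16, 6.04 and 9.64 CPM and 7.66, 8.84 and 6.99 CPM in XY. Gli2 was 9.79-fold higher in XX, and Gli1, a target of the pathway, was under 1 CPM in both groups on average. Ptch1, a receptor that is also a target of the pathway, was the exception, at 17.6, 19.3 and 31.2 CPM in XX and 89.3, 108 and 103 in XY (log2 difference -2.15, SE 0.26, adjusted p 5.83e-07).

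Among genes of the TGF-beta family, 14 of 36 were higher in XX, 9 in XY and 13 were not called, beside 30.5% (XX) and 31.5% (XY) of all genes tested. Of 11 ligands, 5 were higher in XX, among them Bmp2, Bmp4 and Tgfb2, and 3 in XY, which were Amh and the inhibin subunits Inha and Inhbb. Bmp2 was at 107, 123 and 96.8 CPM in XX and 0.887, 2.89 and 3.38 in XY (log2 difference 5.50, SE 0.33, adjusted p 1.15e-11), and Tgfb2 was 22.5-fold higher in XX and Bmp4 higher there by a log2 difference of 3.50. Amhr2, the receptor for AMH, was at 579 ± 10.7 CPM in XX and 515 ± 36.3 in XY, with no call (adjusted p 0.339). On the log2(TPM + 1) scale it was called higher in XX (0.36, adjusted p 0.028 by limma). Of the targets, Id1 and Smad6, which respond to BMP, were higher in XX (1.22 and 2.19), and Smad7 was higher in XY (-1.58).

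Notch genes, which signal between touching cells, were called on both sides, 5 of 14 higher in XX (all genes tested, 30.5%) and 7 in XY (all genes, 31.5%). Hes5, a target of Notch, was at 0, 0.136 and 0.0879 CPM in XX and 37.3, 46.8 and 46.8 in XY (log2 difference -9.15, SE 0.42, adjusted p 1.1e-13; -8.47 without XX replicate 1 and -9.80 without XX replicate 2). Hes1 and Hey1, other targets, were higher in XX: Hes1 was at 123, 119.7 and 68.5 CPM in XX and 12.7, 18.5 and 30.3 in XY (log2 difference 2.34, SE 0.25, adjusted p 7.73e-08). The receptor Notch1 and the ligand Jag1 were 15.1 and 7.55 times higher in XY. Nrarp, which limits Notch signalling, had no count in XX and was at 1.07, 1.38 and 2.92 CPM in XY, at least 13.1-fold higher, and its call was lost on the log2(TPM + 1) scale (adjusted p 0.0764 by limma).

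Retinoic acid is made from retinol by RDH and ALDH1A enzymes and triggers meiosis in XX germ cells, while CYP26B1 removes it in the testis. Of 4 enzymes of synthesis, 3 were higher in XX (30.5% of all genes tested). Rdh10 was at 36.2, 34.3 and 30.5 CPM in XX and 2.8, 4.79 and 6.76 in XY (log2 difference 2.81, SE 0.22, adjusted p 5.37e-10), and Aldh1a2 and Aldh1a3 were 2.25 and 5.05 times higher in XX. Aldh1a1 was the exception, at 84.6, 78.8 and 63.6 CPM in XX and 393, 428 and 508 in XY (log2 difference -2.55, SE 0.24, adjusted p 1.13e-08). Uptake and binding genes were mostly higher in XX (6 of 8, against 30.5% of all genes tested). Stra6, the retinol transporter, was 3.24-fold higher in XX. Rarb, a receptor that is itself a target of retinoic acid, was at 1.2, 1.5 and 0.483 CPM in XX and had 2 counts in XY, a ratio of 35.4-fold (95% counting interval 9.79 to 292). Cyp26a1, like Cyp26b1, was an XY gene, although it was low (1.03, 0.647 and 1.05 CPM; no count in XX).

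Prostaglandin genes were led by Ptgds in XY. Of 12, 5 were higher in each sex, against 30.5% (XX) and 31.5% (XY) of all genes tested, and 2 were not called. The prostaglandin E synthases differed in sign: Ptges was 2.79-fold higher in XY and Ptges2 was 4.34-fold higher in XX (33.9 ± 9.79 CPM against 7.81 ± 1.99 CPM).

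Of 30 collagens, 14 were higher in XX and 12 in XY, while 30.5% and 31.5% of all genes tested were. Both sides held several types: fibrillar collagens were 4 in XX and 4 in XY, fibril-associated ones 1 and 4, and those of basement membranes and other kinds 9 and 4. The XY genes included several known from cartilage. Col9a1 was at 220.4, 243 and 239 CPM in XY and had 3 counts in XX, a ratio of 5507-fold (95% counting interval 1884 to 26702). Col9a3 was at 2.84, 3.73 and 2.02 CPM in XX and 1791, 1978 and 1809.7 in XY (log2 difference -9.34, SE 0.34, adjusted p 7.51e-15), and Col2a1, a target of SOX9 in cartilage, at 0.738, 1.18 and 0.571 and 504, 574 and 483 CPM. Col18a1, the precursor of endostatin, was at 176, 259 and 115 CPM in XX and 6032, 5959.7 and 4967 in XY. Col4a1 and Col4a2, the chains common to basement membranes, were 2.4 and 3.7 times higher in XY.

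Collagens of loose connective tissue were among the XX genes. Col3a1 was at 249, 276 and 162 CPM in XX and 21.3, 24.2 and 20.8 in XY, and Col1a1 at 87.1, 107 and 23 and 0.56, 2.54 and 1.92 CPM, with XX replicate 3 the lowest of its group in both. Col12a1 was at 151, 144 and 179 CPM in XX and 1.82, 3.97 and 4.39 in XY (log2 difference 5.53, SE 0.26, adjusted p 2.08e-13). Col12a1 did not share that order. Markers of interstitial cells summed to 169 to 289 CPM in XX, with replicate 3 the lowest, and to 29.9 to 36.2 CPM in XY. The part of those cells in the collagen differences was not tested.

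Other basement membrane genes were called 6 times of 19 in XX and 7 times in XY, near the 30.5% and 31.5% of all genes tested. The laminin chains differed in sign: Lama4 was at 16.7, 14.5 and 12.1 CPM in XX and 211, 219 and 202 in XY and Lama3 was 19.9-fold higher in XY, while Lama2 was 65.3-fold higher in XX (log2 difference 5.91, or 6.60 without XY replicate 2). Dag1, the laminin receptor dystroglycan, was 3.19-fold higher in XY. Among genes that build and edit heparan sulfate, 13 of 22 were higher in XX, against 30.5% of all genes tested, and 7 in XY, against 31.5%. Beside Sulf1, the sulfotransferases Hs3st1 and Hs3st3b1 were 8.84 and 6.93 times higher in XX, and the epimerase Glce and the core proteins Gpc6 and Sdc4 were 3.8, 5.68 and 2.81 times higher in XY.

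Of 17 cell junction genes, 8 were higher in XY (31.5% of all genes tested) and 3 in XX (30.5%). The gap junction gene Gjb2 was at 0.272, 0.136 and 0.747 CPM in XX and 222, 223 and 216 in XY (log2 difference -9.14, SE 0.37, adjusted p 2.17e-14; -9.95 without XX replicate 3). Gja1, the main connexin of Sertoli cells, was at 586, 535 and 565 CPM in XX and 1892, 1781 and 1742 in XY. Cldn11, of tight junctions, was 4.71-fold higher in XY. Cdh11, a cadherin of mesenchyme, was 26.9-fold higher in XX, beside the interstitial marker levels given above.

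Genes of cell division were lower in XX, and several inhibitors of division were higher there. All 14 mitosis genes were higher in XY (31.5% of all genes tested), with a median of -1.80 and a range from -1.42 (Mki67) to -2.29 (Bub1). Mki67 lost its call on the unfiltered log2(TPM + 1) scale (-0.999, adjusted p 0.0506 by limma). Bub1, of the spindle checkpoint, was at 19.2, 16.1 and 15.7 CPM in XX and 52.9, 99.4 and 97.4 in XY, and Aurka, a spindle kinase, at 25, 22 and 22 and 57.9, 116 and 116 CPM. For both, XY replicate 1 lay between the XX libraries and the other XY libraries. Without it the log2 difference was -2.48 for Bub1 and -2.28 for Aurka, against -2.29 and -2.07 with it. DNA replication genes differed less, with 8 of 14 higher in XY, and Mcm6 higher in XX (0.29).

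Of 6 inhibitors of cyclin-dependent kinases, 3 were higher in XX (30.5% of all genes tested) and none in XY (31.5%). Cdkn1c (p57) was at 1626, 2465 and 4209 CPM in XX, the widest spread of the 3, and 90.7, 51 and 66.2 in XY, 39.9-fold higher (log2 difference 5.32, SE 0.64, adjusted p 6.87e-07). Cdkn1b (p27) was at 118, 116 and 86.7 CPM in XX and 13.1, 13.6 and 12.7 in XY (log2 difference 3.02, SE 0.30, adjusted p 3.74e-08). Cdkn1a (p21) was at 64, 69.1 and 93.3 CPM in XX and 4.34, 4.31 and 4.11 in XY (log2 difference 4.15, SE 0.17, adjusted p 2.07e-14). Of the cyclins, Ccnd1, Ccna2, Ccnb1 and Ccnb2 were higher in XY, and Ccne1 and Ccnd2 in XX, Ccne1 by a log2 difference of 1.55.

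Of 16 glycolysis genes, 11 were higher in XY, where 31.5% of all genes tested were, and 2 in XX (30.5%), with a median of -0.59. Eno1 was at 1565, 1605 and 1326 CPM in XX and 3102, 3895 and 3838 in XY (log2 difference -1.27, SE 0.13, adjusted p 3.56e-08), and Hk1 was 2.28-fold higher. Ldhb, a lactate dehydrogenase outside this list, was at 3488, 2951 and 3013 CPM in XX and 4309, 5946 and 5818 in XY (-0.77). Cholesterol synthesis and uptake genes were higher in XX in 4 of 20 cases and in XY in 9, beside 30.5% and 31.5% of all genes tested. Their median was -0.25 in the count test and 0.09 on the log2(TPM + 1) scale. Nsdhl and Scarb1, the lipoprotein receptor, were 3.21 and 2.23 times higher in XY, and Sc5d was 2.39-fold higher in XX.

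Of 14 growth factors for germ cells and vessels, 5 were higher in XX and 4 in XY, near the 30.5% and 31.5% of all genes tested. The other 5 were not called. The insulin-like growth factors were XX genes: Igf1 was at 119, 99.2 and 100.3 CPM in XX and 1.12, 1.47 and 2.15 in XY (log2 difference 6.07, SE 0.28, adjusted p 1.24e-13), and Igf2 at 120.0, 165 and 143 and 12.2, 18 and 15.2 CPM. Efna1, an ephrin, was 22.7-fold higher in XX. Of 10 hormone receptors, 5 were higher in XX (30.5% of all genes tested) and 3, Fshr among them, in XY (31.5%). Esr1, the oestrogen receptor alpha, was at 40.3, 42.2 and 42.7 CPM in XX and 2.62, 2.63 and 1.92 in XY (log2 difference 4.12, SE 0.26, adjusted p 1.59e-11).

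Axon guidance genes, whose products also steer cell movement outside the nervous system, were higher in XX in 16 of 26 cases, against 30.5% of all genes tested, and in XY in 6, against 31.5% (median 0.91). Slit2 and its receptor Robo1 were on opposite sides. Slit2 was at 83.5 ± 7.62 CPM (SD, n = 3) in XX and 12.2 ± 2.86 in XY (log2 difference 2.77, SE 0.24, adjusted p 3.96e-09), and Robo1 at 18.9, 14.9 and 11.3 CPM in XX and 456, 462 and 417 in XY (log2 difference -4.88, SE 0.43, adjusted p 5.29e-09). The receptors Plxna2 and Epha7 were 12.9 and 2.35 times higher in XX.

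Cornified envelope genes, best known from skin, were read in XX. Of 15 such genes 8 had enough counts for a test, and all of these were higher in XX; 7 did not pass the filter, so that those tested were in part chosen by their XX level. Sprr2d, the XX gene with the largest fitted difference, was at 30.2, 38.3 and 58.2 CPM in XX and at 0 in XY, at least 301-fold lower. Sprr2a2 was at 6.14, 5.64 and 18.1 CPM in XX and at 0 in XY, and Lor (loricrin) at 34.2, 60.4 and 108 and 3.22, 3.75 and 4.39 CPM. In all 3 the highest library was XX replicate 3. The Sprr2 genes are close copies, so the split of reads among them is uncertain. Markers of the surface epithelium were lowest in that library, at a summed 182, 181 and 70.8 CPM in XX replicates 1 to 3, and at 17.1 to 18.9 CPM in XY. Markers of mesonephric tubules were highest in it, at a summed 40.7, 37.6 and 64.9 CPM in XX replicates 1 to 3, and at 5.14 to 9.14 CPM in XY. The part of these cells in the cornified envelope genes was not tested.

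The other genes with the largest fold differences (at least 10 CPM in the higher group, called, no overlap) were of varied kinds. In XX they were Gm5850, a processed pseudogene, Nmur2, Nmnat2, Ugt2b36, Calb1, Stum, Wfdc1, Myh8, Chrm4, Pld5, Gm21083 and the complement genes C1qb and C1qc. Calb1, a calcium-binding protein, was at 103, 84.2 and 70.0 CPM in XX and had 1 count in each XY library, a ratio of 1916-fold (95% counting interval 656 to 9292). Wfdc1, a secreted protease inhibitor, was at 60.8, 62.9 and 67.8 CPM in XX, also with 1 count in each XY library. Chrm4, a muscarinic acetylcholine receptor, was at 68, 109 and 91.3 CPM in XX and 0.0467, 0.259 and 0 in XY (9.66, or 11.66 without XY replicate 2). Nmur2, a receptor for neuromedin U, and Nmnat2, which makes NAD, had no count in XY and were at least 120.3-fold and 81.9-fold higher in XX.

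In XY, beside genes described above, they included Hcrtr1, Slc34a2, Trim55, Sowahb, Miox and Jakmip2. Hcrtr1, a receptor for orexins, had no count in XX and was at 41, 44.1 and 41.3 CPM in XY, at least 309-fold higher. Slc34a2, a phosphate transporter, was at 14.6, 23 and 22.8 CPM in XY and Trim55 at 11.4, 11.1 and 12.6 CPM, both with no count in XX. Miox, which breaks down inositol, was at 15.9, 22.8 and 24.7 CPM in XY and had 1 count in XX.

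By amount of RNA on the length-scaled TPM measure, the largest differences were in other genes. In XY the leading gene was Gstm2, a glutathione transferase, at 1478 ± 103 TPM in XX and 9852 ± 891 TPM in XY (SD, n = 3), followed by Gstm1 (572 ± 52.9 and 5336 ± 462 TPM) and Amh (0.827 ± 0.138 and 3418 ± 43.6 TPM). Gstm1, Gstm2 and Gstm6 are near copies of each other, and reads may have been divided among them. Maged1 (3760.5 ± 503 TPM in XY) and Hspa5, the chaperone of the endoplasmic reticulum (3972 ± 242 TPM in XY), came next, and were 4.74 and 3.68 times higher by CPM. In XX the leading gene was Cdkn1c, at 3273 ± 1493 TPM in XX and 80.2 ± 27.5 TPM in XY, followed by Ifitm1 (2788 ± 201 and 383 ± 17.7 TPM). Tmsb10 and Tmsb4x, which bind actin monomers, and Anxa2, an annexin, were 1.48, 8.01 and 2.38 times higher in XX by CPM. The globin genes Hba-a2, Hba-a1 and Hbb-y were also among the 10, and are taken up with the blood cell markers below.

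Whether the E12.5 difference was already there a day before was asked by testing the E12.5 difference against that at E11.5, and the same was done with E13.5. The difference moved from E11.5 in 6492 genes (40.1%), towards XX in 3167 (19.6%) and towards XY in 3325 (20.5%). Without XX E11.5 replicate 2 the number rose to 7655. The E12.5 difference was unlike that at E13.5 in 4074 genes (25.2%), lying more towards XX at E12.5 in 2237 (13.8%) and more towards XY in 1837 (11.3%). The number was 3756 without the XX E13.5 replicate 1 of unclear stage. The 2 tests share the E12.5 libraries. With only the libraries of the stages compared in the fit, the numbers were 4686 against E11.5 and 5771 against E13.5. Which of the 2 was larger thus depended on the libraries fitted. Of the 4939 genes higher in XX at E12.5, 2004 were also higher in XX at E11.5, which is 40.6% of the E12.5 list and 57.9% of the 3461 genes of E11.5, and 293 were higher in XY at E11.5. For comparison, 21.4% of all genes tested were higher in XX at E11.5 and 20.6% in XY. Of the 5107 genes higher in XY at E12.5, 2202 were also higher in XY at E11.5 (43.1%, and 65.9% of 3342), and 400 were higher in XX.

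The genes named for the smallest p against E11.5 reached the E12.5 state from different starting points. Sulf1 was at 365 ± 50.9 CPM in XX and 351 ± 48.6 in XY at E11.5 (SD, n = 3), and at E12.5 at 651 ± 61.7 and 13.4 ± 1.5 CPM. Its log2 difference moved towards XX by 5.54 (SE 0.17, adjusted p 4.32e-15). Mest, an imprinted gene, was higher in XY at E11.5 (1890.2 ± 217 CPM, against 880.1 ± 124 CPM in XX), and had turned at E12.5 to 1394 ± 247 CPM in XX and 105 ± 2.61 in XY, for a movement of 4.83 (SE 0.21, adjusted p 4.84e-13). Myl9, a myosin light chain, was at 368 ± 78.5 and 387 ± 46.3 CPM at E11.5 and at 523 ± 8.11 and 22.3 ± 2.66 CPM at E12.5. Calb1 was at 151 ± 15.1 CPM in XX and 42.8 ± 3.52 in XY at E11.5, before the near absence from XY given above.

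Towards XY, each of the 5 genes named had a higher XY level at E12.5 than at E11.5. Vnn1, a pantetheinase, was at 13.7 ± 1.59 CPM in XX and 13.9 ± 0.909 in XY at E11.5, and at 15.7 ± 2.27 and 249 ± 13.3 CPM at E12.5, for a movement of -3.96 (SE 0.15, adjusted p 8.14e-14). Tinagl1, a matrix protein, was at 40.9 ± 7.9 CPM in XY at E11.5 and 479 ± 16.4 CPM at E12.5, and Padi2, which converts arginine to citrulline in proteins, went from 7.6 ± 0.753 to 253 ± 11.9 CPM in XY and from 7.13 ± 3.14 to 0.99 ± 0.321 CPM in XX. Inha was higher in XX at E11.5 (195 ± 30.7 CPM, against 83.5 ± 4.91 CPM in XY), while the E12.5 levels were 145 ± 5.48 CPM (XX) against 496 ± 26.1 CPM (XY). Cltb, a clathrin light chain, was at 39.5 ± 5.63 CPM in XY at E11.5 and 283 ± 32.7 CPM at E12.5.

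Against E13.5, the XY level of most named genes lay well apart between the stages. Ctsl, a lysosomal protease, went in XY from 285 ± 55 CPM (E12.5) to 967 ± 127 CPM (E13.5), against 83.1 ± 5.26 and 76.2 ± 2.81 CPM in XX, so that the log2 difference at E12.5 lay more towards XX by 1.89 (SE 0.17, adjusted p 7.45e-07). Mmp11, Unc13b and Slc52a3 also rose in XY, but unlike Ctsl they were lower in XX at E13.5 as well. Their XY levels were 111 ± 16.9, 74.8 ± 8.74 and 47.2 ± 0.459 CPM at E12.5 and 322 ± 44.3, 220.4 ± 32.2 and 99.1 ± 7.38 CPM at E13.5. Their XX levels were 72 ± 10.3, 22 ± 3.17 and 11.7 ± 4.78 CPM at E12.5 and 35.6 ± 4.74, 12.6 ± 1.65 and 1.76 ± 0.282 CPM at E13.5. Asns, which makes asparagine, was higher in XX at E12.5 (620.4 ± 59 CPM, against 110.0 ± 3.76 CPM in XY) and was at 167 ± 9.15 and 184 ± 3.15 CPM at E13.5, through its XX level. Igf2 was at 15.1 ± 2.88 CPM in XY at E12.5 and at 2.58 ± 0.656 a day later, while XX was at 143 ± 22.4 and 219.6 ± 15.3 CPM, a difference between the stages of -3.19 (SE 0.24, adjusted p 8.01e-08). Hey1, Ifitm1 and Pde9a were likewise lower in XY at E13.5, at 3.97 ± 0.219, 18 ± 0.632 and 6.27 ± 0.242 CPM, against 15.4 ± 0.482, 158 ± 9.24 and 24 ± 1.07 CPM at E12.5. Manf, a secreted protein of the stress response of the endoplasmic reticulum, was at 124 ± 3.93 CPM in XX and 306 ± 16.6 in XY at E12.5, and at 226 ± 6.17 and 179 ± 6.75 CPM at E13.5. Without the XX E13.5 replicate 1 of unclear stage these 10 genes kept their call and direction.

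**Figure D4:**
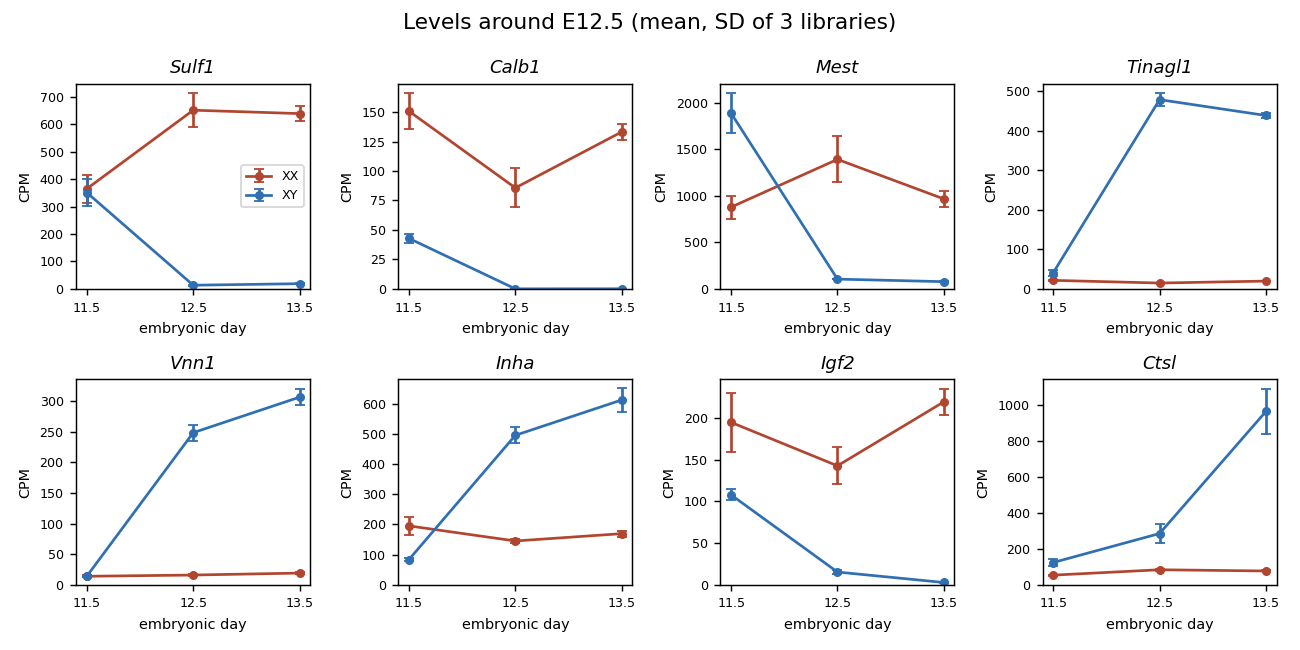
Mean CPM with SD of 3 libraries for 8 genes at E11.5, E12.5 and E13.5 in XX (red) and XY (blue), each panel on its own linear axis from 0. Sulf1 and Vnn1 overlap at E11.5 and are apart at E12.5, Mest and Inha change order between these stages, and Igf2 and Ctsl in XY move on between E12.5 and E13.5.

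Markers of other cells were read in both groups, and several of their lists differed between them. Immune cell markers were nearly absent from XY: all 10 were higher in XX, against 30.5% of all genes tested. Their summed level was 69.4, 68.7 and 68.8 CPM in the XX libraries and 0.327, 0.992 and 1.55 CPM in XY. C1qc was at 13.1, 14.6 and 13.4 CPM in XX and at 0 in XY, and Csf1r, the macrophage receptor, at 13.8, 11.7 and 12.4 CPM in XX and 0.187, 0.82 and 1.37 in XY. Red blood cell genes summed to 795 to 1819 CPM in XX, lowest in replicate 3, and 21.2 to 37.6 CPM in XY. Hba-a2, which shares nearly all its sequence with Hba-a1, was at 421, 596 and 270.0 CPM in XX and 6.21, 10.4 and 4.75 in XY. Smooth muscle markers summed to 78.2 to 80.2 CPM in XX and 2.66 to 2.85 in XY, and mesonephric tubule markers to 37.6 to 64.9 and 5.14 to 9.14 CPM. In each of these 2 lists, 3 of 5 genes were higher in XX (30.5% of all genes tested) and 2 were not called.

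Interstitial and surface markers were higher in XX too, 7 of 8 and 7 of 7 genes called (30.5% of all genes tested). Upk3b, of the mesothelium, was at 99.2, 91.2 and 27.6 CPM in XX and 0.0934, 0.431 and 0.32 in XY. Germ cell markers were low in both (14.1 to 16.5 CPM in XX and 13.7 to 15.9 in XY), and endothelial markers summed to 50.1 to 67.1 and 37.5 to 40.8 CPM. Of 8 endothelial markers, 1 was higher in XX, 1 in XY and 6 were not called, while 62.1% of all genes tested were called. Kdr, a VEGF receptor, was 55-fold higher in XX, and Cdh5, the cadherin of vessels, 3.15-fold higher in XY. In XY, the summed level of neural crest and Schwann cell markers was higher (12.9 to 24.4 CPM in XX and 139 to 162 in XY). Of 6 tested, 3 were higher in XY (31.5% of all genes tested), none in XX, and 3 were not called. Erbb3 made up most of the XY sum, at 0.816, 0.909 and 1.41 CPM in XX and 109, 119 and 106 in XY. Foxd3 had no count in any of the 6 libraries, while S100b and Ednrb were higher in XY (-3.38 and -2.77). The part of these other cells in the differences of the genes above was not tested.

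**Figure D5:**
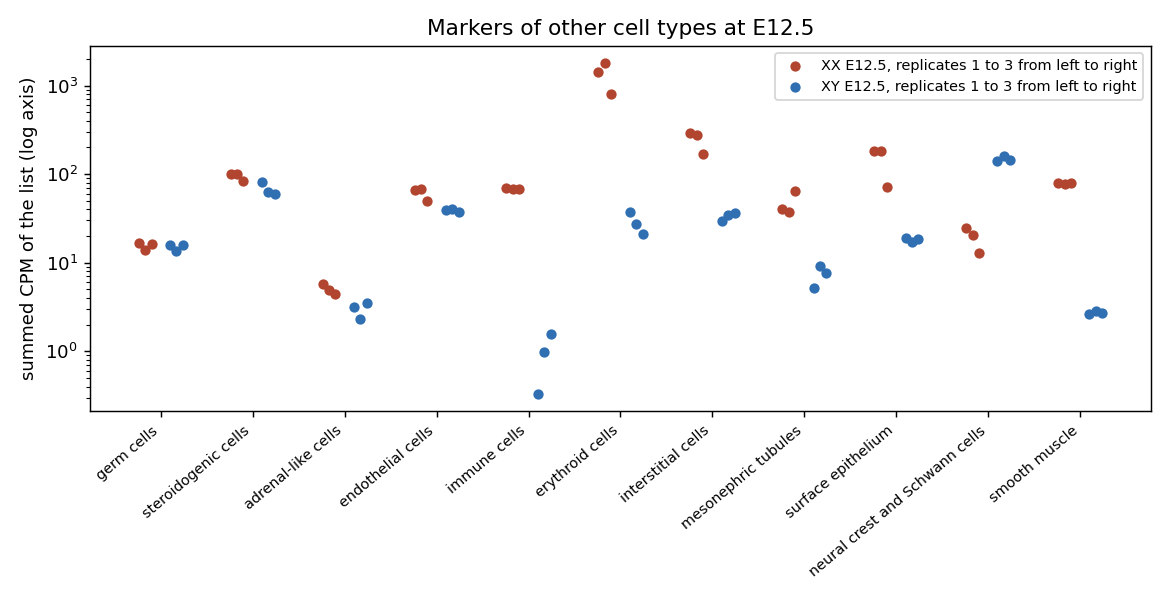
Summed CPM of marker lists of 11 other cell types in each of the 6 libraries, on a log axis (red, XX; blue, XY; replicates 1 to 3 from left to right). Immune, red blood cell and smooth muscle lists are higher in all XX libraries, germ cell lists overlap, and neural crest lists are higher in all XY libraries.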

How the data were processed

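RNA of sorted supporting cells was sequenced after cDNA amplification, without molecular identifiers. The authors deposited estimated counts per gene (17.5% are not whole numbers) and TPM, scaled by library size and transcript length; the genome build is mm10, per the submitters' processing notes, and the aligner, the counting tool and strand handling are not given in the sources used here. Deposited counts were rounded and analysed with edgeR 4.0.16 (R 4.3.3): filterByExpr, TMM scaling, and a robust quasi-likelihood fit of all 24 libraries in 8 groups of 3, which share 1 estimate of the spread (16 residual degrees of freedom; biological coefficient of variation 17.4%). P values were adjusted by Benjamini-Hochberg across the 16190 genes that passed the filter; those with an adjusted value under 0.05 are spoken of as called. The fit was also run on simulated counts in which few genes differed between XX and XY at E12.5. Far more genes were called in the data, so that run does not check the scaling or the calls given here. All columns of the deposited tables were mapped to samples.

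CPM use TMM-scaled library sizes, and log2 differences are XX minus XY. A fold is the ratio of mean CPM. Where a group had no count, the fold is a lower bound against 3 counts in its shallowest library; where it had 1 to 3 counts in all, the ratio carries a 95% counting interval. The alternatives used DESeq2 1.42.0, limma 3.58.1 on log2 TPM, other filters, a replicate block and leaving out libraries. Gene positions are from GENCODE M21 by symbol (97.1% of tested genes matched) and promoters from RefSeq, which matched 12425 tested genes; Amh, Sox10, Fst and Sulf1 had no entry used here.

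The members and gene lists were chosen with earlier results of these data known, and 7 lists, given under other observations, after these values were seen. Named genes are members of lists, plus the 15 per direction with the largest fold (at least 10 CPM, called, no overlap), the 10 per direction with the largest TPM difference, and the 5 per direction with the smallest p in each comparison with another stage; Xist, Tsix and Y-linked and mitochondrial genes were left out of these rankings. Some genes that meet the rule are not reported here.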

Additional observations from a re-analysis of the deposited data

Results flagged for a closer look

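The results here concern differences between XX and XY that were not the same at E12.5 and at a neighbouring stage, by a test of the difference itself (edgeR, Benjamini-Hochberg adjusted p under 0.05). Against E11.5 this held for 6492 genes and against E13.5 for 4074 genes, in the fit of all 24 libraries. All values that follow are on the log2 scale and are the E12.5 difference (XX minus XY) minus that of the other stage.

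Against E11.5, the difference moved towards XX by 5.54 for Sulf1, 8.91 for Calb1, 4.63 for Myl9 and 4.83 for Mest. It moved towards XY with values of -4.09 for Tinagl1, -3.96 for Vnn1, -2.999 for Inha, -7.86 for Padi2 and -3.58 for Cltb. Calb1 had 1 count in each XY library at E12.5, so its value depends on the prior count of the fit.

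Against E13.5, the E12.5 difference lay more towards XX by 2.63 for Asns, 1.89 for Ctsl, 2.55 for Mmp11, 2.36 for Unc13b and 3.82 for Slc52a3. It lay more towards XY with values of -3.19 for Igf2, -1.91 for Hey1, -1.64 for Manf, -2.36 for Pde9a and -3.28 for Ifitm1.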

How the results depend on the processing

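Of the 247 genes whose values were recomputed, 19 changed direction or call under at least 1 of the alternatives run. Wt1, which was not called, changed sign: its log2 difference was 0.0143 with DESeq2 size factors and 0.0143 with DESeq2's own test, 0.0721 with at least 10 counts required in every E12.5 library, 0.175 on the log2(TPM + 1) scale with or without a filter, 0.176 on the log2(TPM + 0.1) scale, 0.0341 with only the libraries of the stages compared, and 0.0105 to 0.0723 when 1 library was left out in the 5 cases where it turned (-0.0123 in the remaining case). The cause was not tested. Apart from the limit on size below, calls also changed for 9 genes. On TPM scales, Amhr2 was gained and Fgf10, Mki67, Mmp11, Nrarp and Wnt6 were lost on 1 or more of them. With only the libraries of the stages compared, Amhr2 (0.233) and Cbx2 (-0.355) were gained. Without the filter on counts Kitl was lost (0.264), and leaving out 1 library lost Kitl and Wnt6 and gained Gata4.

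Requiring an absolute log2 difference of at least 1 left 5434 genes at E12.5, 3206 higher in XX and 2228 in XY, and left 3859 genes for the difference from E11.5 and 1831 for that from E13.5. By limma on log2(TPM + 1) and log2(TPM + 0.1), 3296 and 3272 genes were higher in XY, and 62.5% and 63.2% of calls were higher in XX. DESeq2 called 10099 genes, 9772 of them also called by edgeR. Leaving out each E12.5 library in turn gave 8975 to 9345 genes called, 4739 to 4966 higher in XX and 4236 to 4444 in XY, and 302 to 312 called members of the gene lists (324 with all libraries). With only the libraries of the stages compared, 4686 genes differed from E11.5 and 5771 from E13.5, the reverse order of the main fit. Leaving out a library of either stage gave 3179 to 3783 genes against E13.5. Against E11.5 it gave 7655 genes without XX E11.5 replicate 2 and 5761 to 6326 in all other cases.

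XX and XY libraries share replicate numbers, but the numbers did not pair them: the correlations of same-numbered libraries' deviations were 0.14, 0.0319 and 0.0995. With a replicate block 10004 genes were called, 4916 higher in XX and 5088 in XY, together with 6444 genes against E11.5, 4009 against E13.5 and 322 list members. At these depths a gene below 0.117 to 0.14 CPM cannot be told from absent, and intervals cover counting error only, since the amplified cDNA carried no molecular identifiers.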

Other observations

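Gene groups outside the pathways above also differed, and were chosen for description after their values were seen. Of 18 chaperones and quality control genes of the endoplasmic reticulum, 15 were higher in XY (median -1.42; 31.5% of all genes tested were higher in XY). Hspa5 was at 1738, 1519.5 and 1636 CPM in XX and 6232, 5903 and 5852 CPM in XY. The 3 that were higher in XX were Dnajb9, Herpud1 and Edem1. Of 19 glutathione transferases, 12 were higher in XY (all genes, 31.5%) and none in XX (30.5%), and reads may have been divided among their near copies. Imprinted genes leaned the other way, with 13 of 19 higher in XX, where 30.5% of all genes were, and 3 in XY. Among these were Cdkn1c, Igf2 and Mest, described above. Interferon-induced genes were higher in XX in 8 of 10 cases (all genes, 30.5%), beside the higher immune cell markers of the XX libraries, whose part was not tested. Of 14 actin and annexin genes, 10 were higher in XX and 3 in XY, against 30.5% and 31.5% of all genes. Of 9 genes of the amino acid response, 6 were higher in XY (all genes, 31.5%), among them Phgdh (-1.98), and 2 in XX (30.5%), among them Asns (2.50). Of 4 genes that escape X inactivation, 1 was higher in XX and 2 in XY, beside 30.5% and 31.5% of all genes. This split depended on scaling: with DESeq2 size factors it was 2 in XX and 1 in XY, and on the log2(TPM + 1) scale 1 in each.

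Of 672 long noncoding RNAs tested, 229 (34.1%) were higher in XX, near the 30.5% of all genes, and 105 (15.6%) in XY, against 31.5%. Genes of the X chromosome were called about as often as all genes: of 602 tested, 180 were higher in XX and 185 in XY, with a median log2 difference of -0.05.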
